A study of Homo sapiens with 15 samples.

Results

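NCL, NPM1, NOP56, FBL and POLR1B were examined as 5 nucleolar genes that are widely cited targets of the transcription factor MYC. For each gene, the called peaks of MYC and WDR5 with any base within 3 kb of its hg19 start were taken, which gave 17 of the 20388 peaks in the study. The start positions were chr2:232329205 for NCL, chr5:170814708 for NPM1, chr20:2633178 for NOP56, chr19:40337054 for FBL and chr2:113299492 for POLR1B. NCL and FBL lie on the minus strand and the other three on the plus strand.

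The peaks came from chromatin immunoprecipitation followed by sequencing (ChIP-seq) in HEK293, a line derived from human embryonic kidney. A retrovirus delivered FLAG-tagged wild-type MYC (WT-MYC), a FLAG-tagged MYC deficient in WDR5 binding (WBM-MYC), or no insert in the vector control, and anti-FLAG M2 resin was used for the precipitation in all of these cells. In cells without a retrovirus, WDR5 was precipitated with an antibody against the protein, and rabbit IgG served as its control. Each of the 5 groups has 3 biological replicates, 15 libraries in all. One peak list was analysed for each of WT-MYC (2527 peaks), WBM-MYC (690 peaks) and WDR5 (17171 peaks). Peaks of the vector and IgG controls were not analysed here. With 1 list per group there is no spread between replicates, the read depth is unknown, and no value below carries a replicate error or a test. A gene without a peak may be bound below the threshold of that list, and the tagged proteins were placed in cells that also have their own MYC.

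Ribosomes are assembled in the nucleolus. There RNA polymerase I transcribes the ribosomal RNA precursor, small nucleolar ribonucleoproteins (snoRNPs) modify and fold it, and assembly factors join it to ribosomal proteins. MYC is known to drive genes at each of these steps, binding as a dimer with MAX to the E-box, a short motif whose canonical form is CACGTG. WDR5 is a shared subunit of histone H3 lysine 4 methyltransferase complexes at active promoters, and it also binds a conserved segment of MYC.

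All 5 genes had a WDR5 peak, 4 had a WT-MYC peak and 3 had a WBM-MYC peak. NCL, NPM1 and POLR1B had a peak in all 3 lists, FBL in the WT-MYC and WDR5 lists, and NOP56 in the WDR5 list alone. The 3 lists come from separate cells, so peaks that overlap between lists do not show proteins bound together. For comparison, 17.0% of the 15068 WDR5 regions (overlapping WDR5 peaks merged) had a WT-MYC peak within 3 kb, 4.24% had a WBM-MYC peak within 3 kb, and 3.25% had both. Those regions are not a set of gene starts, and the 5 genes were selected as known MYC targets, so the counts describe these genes only. The share of all gene starts with a WDR5 peak was not derived, so the WDR5 count has no comparison. The 17 peaks comprise 5 of WT-MYC, 3 of WBM-MYC and 9 of WDR5. WDR5 overlapped 4 of the 5 WT-MYC peaks, against 82.9% in the whole list, and 2 of the 3 WBM-MYC peaks, against 75.5%. Of the WT-MYC peaks 4 overlapped a WBM-MYC peak, against 20.9% in the whole list. The share was 56.1% in its first 374 lines, a cut set by the last of these 5 peaks. The 4 include the 2 NCL peaks, which overlap each other and the same WBM-MYC peak. By gene, 3 of the 4 with WT-MYC had such an overlap. All 3 WBM-MYC peaks overlapped a WT-MYC peak, against 72.0%.

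Sequences at the starts are shown for the genes with a single start in the RefSeq promoter table (GRCh38.p14), because they place FBL, with WT-MYC over its start, beside NOP56, with no MYC peak, and NCL, with MYC only downstream of its start. The peaks were placed by the hg19 starts, and the match of these to the RefSeq starts was not checked. Each line gives the 250 bases before the start, 5′ to 3′ on the gene's strand. Capitals mark matches to CANNTG, the general E-box form that includes CACGTG, or to CACGCG, a variant form, on either strand.
NCL chr2:231464485-231464734: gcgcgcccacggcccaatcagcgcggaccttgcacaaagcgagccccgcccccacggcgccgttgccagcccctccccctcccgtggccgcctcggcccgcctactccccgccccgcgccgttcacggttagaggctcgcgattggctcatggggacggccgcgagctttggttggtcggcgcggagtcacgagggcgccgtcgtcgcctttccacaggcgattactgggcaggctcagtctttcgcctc
NOP56 chr20:2652382-2652631: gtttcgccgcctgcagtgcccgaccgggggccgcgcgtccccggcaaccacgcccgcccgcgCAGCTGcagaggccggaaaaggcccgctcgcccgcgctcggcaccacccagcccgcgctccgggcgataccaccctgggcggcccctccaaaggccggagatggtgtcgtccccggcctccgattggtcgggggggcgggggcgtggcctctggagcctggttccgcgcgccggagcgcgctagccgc
FBL chr19:39846380-39846629: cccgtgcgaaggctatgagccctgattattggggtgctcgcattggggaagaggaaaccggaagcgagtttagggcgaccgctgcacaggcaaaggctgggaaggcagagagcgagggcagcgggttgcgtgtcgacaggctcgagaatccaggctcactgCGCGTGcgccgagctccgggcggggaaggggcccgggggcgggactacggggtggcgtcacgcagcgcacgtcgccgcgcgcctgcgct

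FBL was the single gene of the 5 with CACGTG in its promoter window (the 250 bases before the start and the first 50 after it). The match begins at base 7 of the transcript, counting the start base as 1, and is shown within 30 bases.
FBL site chr19:39846356-39846385: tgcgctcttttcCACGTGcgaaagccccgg

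NPM1 and POLR1B each have 2 starts in the table, 733 and 429 bp apart, and only short stretches around their matches are shown. At the later NPM1 start, the window holds 4 matches to CACGCG or its reverse complement CGCGTG, and the first pair share bases in the stretch below. At POLR1B, the earlier window holds 1 match to CANNTG and the later window 2, none of them CACGTG.
NPM1 site chr5:171387599-171387628: gCACGCGTGcgcacaggcgacagcagcgga
POLR1B earlier site chr2:112541815-112541844: aatcCAGTTGgacgccccgctgccccatcc
POLR1B later site chr2:112542480-112542509: tgtgCAGGTGgcCACATGgatcctggcagc

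Among all 35116 promoter windows of this length in the table, 7.26% held CACGTG, 68.7% held CANNTG and 11.4% held CACGCG. NCL had no match to any of these forms in its window, and the NOP56 window held a single CANNTG match, CAGCTG, which begins 188 bases before the start. A missing match says only that these letters are not in the window. Measured from the hg19 starts, the MYC peak nearest the start began 173 bp downstream at NCL, 603 bp at NPM1 and 144 bp at POLR1B. A window at those starts ends before these peaks, whereas the FBL peak covers its start. If the NCL starts of the builds match, the stretch under its MYC peaks was not searched. Whether the NPM1 and POLR1B matches lie under MYC peaks was not determined, because each gene has 2 possible starts. GC content was 70.3% at NCL, 76.3% at NOP56, 67.7% at FBL and 63.7% at both POLR1B starts, against a median of 58.7% over all windows. At NPM1 it was 47.7% at the earlier start, below that median, and 66.0% at the later one. NCL had 39 CpG dinucleotides, NOP56 42 and FBL 37, where the median window had 14. POLR1B had 21 and 30 at its 2 starts, and NPM1 had 13 at the earlier start and 33 at the later one.

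Further genes of the pathway were taken from lists of RNA polymerase I subunits and factors, snoRNP proteins, and assembly and processing factors. No source at hand places their starts in hg19, so their peaks were not counted and only their promoter letters were read. Of the 45 listed genes, 36 were matched in the promoter table, 31 of them apart from the 5 described here. CACGTG was present at 12 of these 31 genes (38.7%), against 8.77% of all 27305 genes in the table. By list, it was present at 9 of 14 assembly and processing genes, 2 of 4 snoRNP genes and 1 of 13 polymerase I genes. These are counts of letters, not of bound sites.

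**Figure D1:**
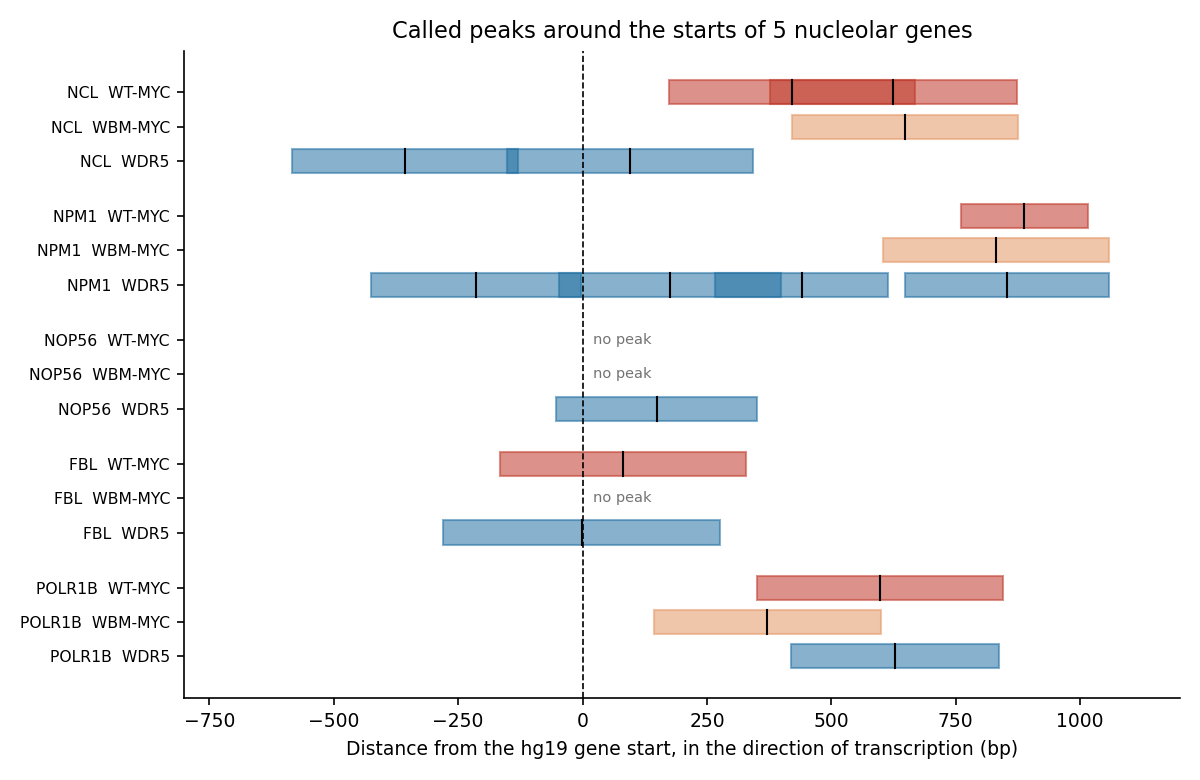
Called peaks of WT-MYC, WBM-MYC and WDR5 (rows) at each gene, drawn by distance in bp from the hg19 start along the direction of transcription (dashed line at 0). Black ticks mark peak centres and darker shading marks peaks of 1 list that overlap. MYC peaks lie downstream of the hg19 start used at NCL, NPM1 and POLR1B and across it at FBL, and NOP56 has a WDR5 peak only.

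NCL encodes nucleolin, an abundant nucleolar RNA-binding protein that acts in ribosomal RNA transcription and processing. It is a classic MYC target for which binding in the first intron has been described. Here it had 2 WT-MYC peaks that overlap each other, at chr2:232328333-232328828 and chr2:232328537-232329032, with 292 bp in common. Their centres lay 624.5 and 420.5 bp downstream of the start. Of all WT-MYC peaks, 8.11% overlap another WT-MYC peak. The WBM-MYC peak, chr2:232328330-232328785, was centred 647.5 bp downstream and covered 453 bp of the more downstream WT-MYC peak, with 23 bp between centres.

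WDR5 at NCL lay closer to the start. Its 2 peaks, chr2:232328863-232329357 and chr2:232329334-232329788, were centred 95 bp downstream and 356 bp upstream of the start and shared 24 bp. Together they formed a region of 926 bp that runs across the start. The more upstream WT-MYC peak overlapped this region by 170 bp, which is 34.3% of the shorter peak. The other WT-MYC peak ended 34 bp short of it, and the WBM-MYC peak 77 bp short of it. NCL was therefore the gene at which MYC and WDR5 were most offset: the closest WT-MYC and WDR5 centres lay 325.5 bp apart. A WDR5 peak within 3 kb but none overlapping was found for 4.27% of WT-MYC peaks and 3.91% of WBM-MYC peaks.

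NPM1 encodes nucleophosmin, a histone and ribosomal protein chaperone of the nucleolus. Binding of MYC in its first intron has also been described. Its WT-MYC peak, chr5:170815468-170815723, was centred 887.5 bp downstream of the start, the farthest of the 5 WT-MYC peaks. It spanned 256 bp and so was one of the 53 WT-MYC peaks (2.10%) narrower than the common 496 bp. The WBM-MYC peak, chr5:170815311-170815766, contained it whole, and their centres lay 57 bp apart.

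WDR5 had 4 peaks at NPM1, more than at any of the other four genes. Their centres were 214 bp upstream and 176, 440 and 852.5 bp downstream of the start. The leading 3 overlapped in a chain and formed a region of 1040 bp, chr5:170814283-170815322, across the start. The fourth, chr5:170815355-170815766, stood 32 bp farther on and contained the WT-MYC peak. Its centre lay 35 bp from that of WT-MYC and 22 bp from that of WBM-MYC. Only 2.21% of WDR5 peaks had 4 or more WDR5 peaks within 3 kb of their centre, themselves included. The WDR5 peak under MYC was at line 4888 of its list, whereas the one next to the start was at line 931.

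FBL encodes fibrillarin, the methyltransferase of box C/D snoRNPs, which methylates ribosomal RNA. FBL had a WT-MYC peak, chr19:40336725-40337220, that ran from 166 bp before to 329 bp after the start, with its centre 81.5 bp downstream. It was the only WT-MYC peak of the 5 that covered the hg19 start used. The WDR5 peak, chr19:40336777-40337335, was centred 2 bp upstream of the start and shared 444 bp with it, with 83.5 bp between centres. No WBM-MYC peak was called at FBL, and the nearest lay 2.03 Mb away.

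NOP56 encodes another core protein of box C/D snoRNPs, a partner of fibrillarin. Its single peak was of WDR5, chr20:2633125-2633529, from 53 bp before to 351 bp after the start, with its centre 149 bp downstream. No peak of either MYC form was listed within 100 kb of the start. The nearest WT-MYC peak lay 182 kb upstream at line 2244 of 2527, and the nearest WBM-MYC peak lay 7.57 Mb downstream. WDR5 regions with neither MYC form within 3 kb made up 82.0% of the 15068, so NOP56 resembles most WDR5 sites in this respect.

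POLR1B encodes the second-largest subunit of RNA polymerase I, which makes the ribosomal RNA precursor. The peaks of its 3 lists all lay downstream of the start. WT-MYC, chr2:113299842-113300337, was centred 597.5 bp downstream, and WDR5, chr2:113299910-113300329, lay whole within it, with centres 30 bp apart. WBM-MYC, chr2:113299636-113300091, was centred 371.5 bp downstream, 226 bp closer to the start than WT-MYC. It shared 250 bp with the WT-MYC peak and 182 bp with the WDR5 peak (43.3% of the shorter). POLR1B was the only one of the 5 genes with no WDR5 peak over the start that was used. Its WDR5 peak, from 418 to 837 bp downstream, would cover a start 429 bp farther downstream. The WT-MYC peak (350 to 845 bp) and the WBM-MYC peak (144 to 599 bp) would also cover that start. Which of the 2 starts in the RefSeq table corresponds to the hg19 start was not determined for NPM1 and POLR1B. The 2 RefSeq starts are 733 bp apart at NPM1 and 429 bp apart at POLR1B. Distances would move by that much only if the hg19 start matches 1 of the 2.

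Measured from the hg19 starts used, the centres of all 8 MYC peaks lay downstream, from 81.5 to 887.5 bp. These peaks lie at 4 genes, and MYC peaks at the same gene overlap one another. The share of all MYC peaks centred downstream of a gene start was not derived. From a POLR1B start 429 bp farther downstream, the WBM-MYC centre of that gene (371.5 bp) would lie upstream. An NPM1 start 733 bp farther downstream would leave both MYC centres of that gene downstream. The NPM1 WBM-MYC peak (603 to 1058 bp) would cover such a start. The 9 WDR5 centres lay on both sides, with 3 upstream and 6 downstream. The 8 MYC peaks were also the only ones within 100 kb of the 5 starts. Of 2424 merged WT-MYC regions, 57.9% had no other WT-MYC region within 100 kb, and of 678 merged WBM-MYC regions 74.8% had no other WBM-MYC region within that distance. WDR5 had further peaks within 100 kb of each start, from 1 at NOP56 to 3 at NCL, NPM1 and POLR1B. The closest of these to a start lay 11.5 kb from NOP56, 12.1 kb from FBL, 42.2 kb from POLR1B, 49.6 kb from NCL and 63.0 kb from NPM1. No peak was thus close to the 3 kb limit on either side, the farthest edge inside it being 1058 bp from a start.

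In the RefSeq gene table (GRCh38.p14), NCL and NOP56 are host genes. NCL contains the small nucleolar RNA genes SNORA75, SNORD20 and SNORD82. NOP56 contains SNORA51, SNORD56, SNORD57, SNORD86 and SNORD110 and the microRNA gene MIR1292. FBL and NPM1 contain no annotated gene in that table, and POLR1B contains and overlaps long noncoding RNA genes only. The next protein-coding genes upstream are NMUR1 for NCL, TLX3 for NPM1, TMC2 for NOP56, FCGBP for FBL and TTL for POLR1B.

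The lists carry no score, and the rule of their order is not given in the sources used here, so file position is reported as it stands. All 5 WT-MYC peaks were early in their list. That of NPM1 was at line 28 of 2527, those of NCL at lines 70 and 201, that of POLR1B at line 232 and that of FBL at line 374 (14.8% of the list). The WBM-MYC peaks were spread more widely over their 690 lines: NPM1 at line 106, POLR1B at line 356 and NCL at line 591 (85.7%). Of these genes, NPM1 came first in both MYC lists. NCL came second of them in the WT-MYC list and last of them in the WBM-MYC list.

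**Figure D2:**
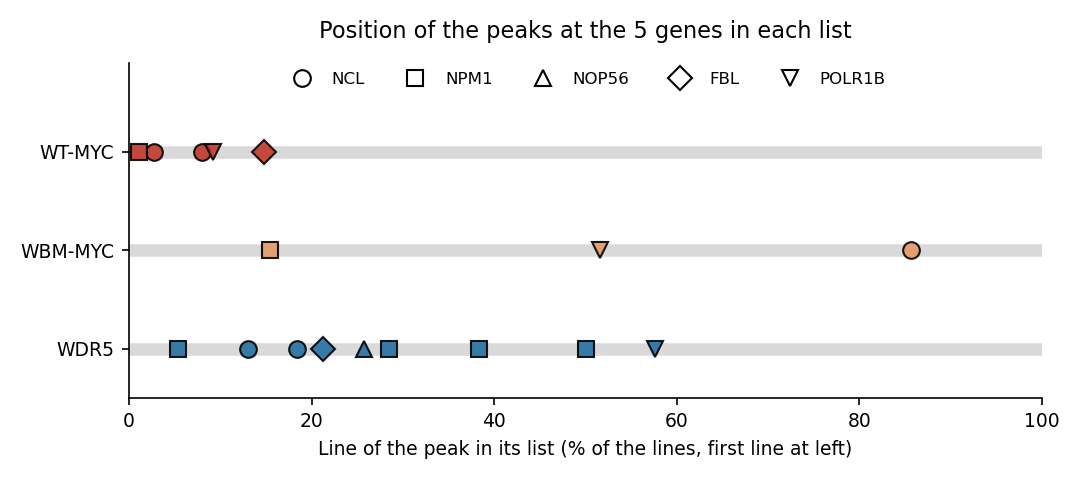
Line of each peak as a percentage of its list (x axis, first line at left) for the 3 lists (rows), with 1 marker shape per gene. WT-MYC peaks of 4 genes lie within the first 14.8% of their list, while WBM-MYC peaks lie from 15.4 to 85.7% and WDR5 peaks from 5.42 to 57.6%.

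In the WDR5 list, the 9 peaks ran from line 931 (NPM1, 5.42%) to line 9890 (POLR1B, 57.6%). NCL had lines 2229 and 3154, FBL line 3655 and NOP56 line 4427, and the other NPM1 peaks were at lines 4888, 6586 and 8607. The share of WDR5 peaks with a WT-MYC peak within 3 kb fell along this list, from 39.0% in the first 10% of lines (exact 95% interval 36.7 to 41.4%) to 10.2% from 75 to 100% of the lines (9.29 to 11.1%). These intervals cover counting error over peaks only. FBL and NOP56 stood near each other in this order, at 21.3 and 25.8% of the list. POLR1B lay in the part from 50 to 75%, where 11.8% of WDR5 peaks had WT-MYC within 3 kb, and it had peaks of both MYC forms. NOP56 lay in the part from 25 to 50%, where 16.2% had WT-MYC, and it had neither. It stood just past the part from 10 to 25%, which held FBL and where 24.9% had WT-MYC.

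**Figure D3:**
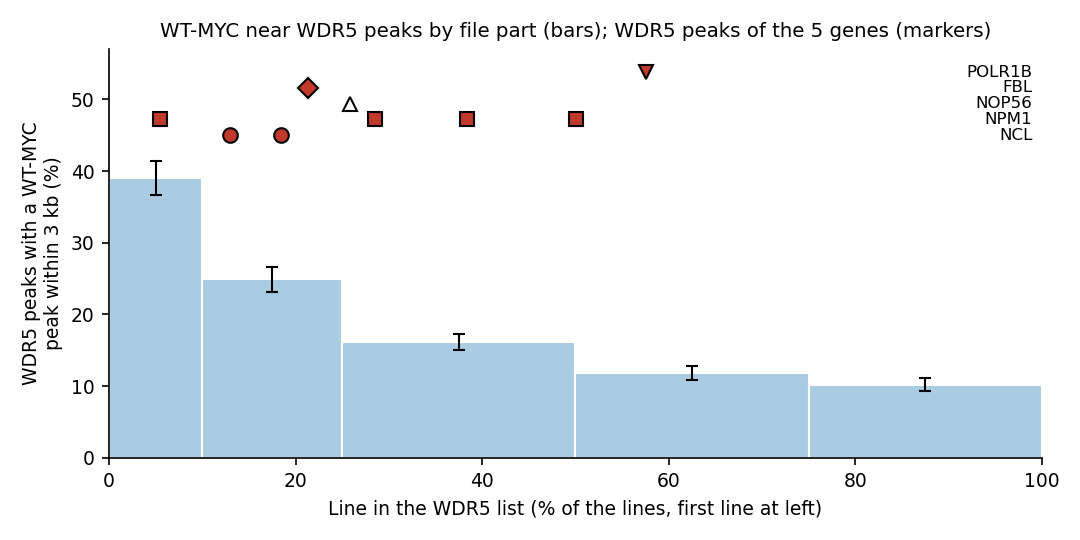
Bars give the percentage of WDR5 peaks with a WT-MYC peak within 3 kb in 5 parts of the WDR5 list, with exact 95% intervals, falling from 39.0 to 10.2%. Markers above the bars show where the WDR5 peaks of each gene stand on the x axis (filled, gene with a WT-MYC peak; open, NOP56, without one); their height only separates the genes.

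Distances between centres could be taken at the 4 genes with a MYC peak. Over all 2096 WT-MYC peaks that overlap WDR5, the median distance to the nearest overlapping WDR5 centre was 71 bp, with quartiles of 28 and 138 bp. POLR1B (30 bp) and NPM1 (35 bp) were below that median, FBL (83.5 bp) was near it, and at NCL (325.5 bp) only 4.44% of pairs were as far apart or farther. Between WT-MYC and WBM-MYC the median was 33 bp over 527 peaks, with quartiles of 10.5 and 72.5 bp. The NCL peak at line 70 (23 bp) and NPM1 (57 bp) lay within these quartiles. The NCL peak at line 201 (227 bp) and POLR1B (226 bp) lay beyond them, with 5.31 and 5.69% of pairs as far apart or farther. Between WBM-MYC and WDR5, NPM1 had 22 bp and POLR1B 256 bp, against a median of 80 bp over 521 peaks. The 3 genes with peaks of both MYC forms differed in layout. At NPM1 both MYC peaks were centred close to 1 of the 4 WDR5 peaks, while the other three WDR5 centres lay 447.5 to 1101.5 bp from that of WT-MYC. At POLR1B, WT-MYC and WDR5 were centred close together and WBM-MYC lay nearer the start. At NCL, WBM-MYC was centred close to 1 of the 2 WT-MYC peaks, and both WDR5 centres lay at least 325.5 bp from either WT-MYC centre.

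**Figure D4:**
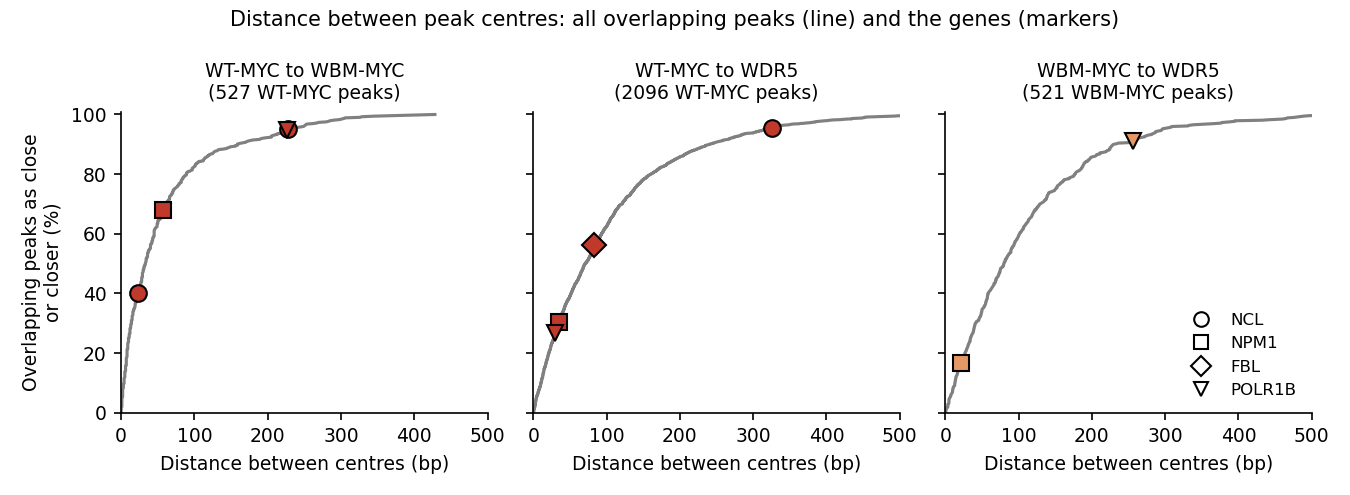
Cumulative percentage (y axis) of overlapping peaks by distance between centres in bp (x axis, to 500 bp) for the 3 pairs of lists, with the peaks of the genes as markers. NPM1 lies at 57, 35 and 22 bp. POLR1B and 1 of the 2 NCL peaks lie high for WT-MYC to WBM-MYC (226 and 227 bp), NCL for WT-MYC to WDR5 (325.5 bp) and POLR1B for WBM-MYC to WDR5 (256 bp).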

How the data were processed

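The authors deposited 1 peak list each for WT-MYC, WBM-MYC and WDR5, in 3 columns (chromosome, start and end in base pairs) with no header or score. Per the submitters' processing notes, Bowtie 0.12.7 and CASAVA 1.8.2 were among the tools and coordinates are hg19. Not given in the sources used here are the peak caller, its threshold, the use of controls and any pooling of replicates. Starts were read as 0-based, as in BED, and are printed 1-based. The 5 genes and their hg19 starts were set for this work, and they and the gene lists were chosen with earlier results of these data known. The genes named are these 5 and their annotated neighbours. Peaks were kept when any base lay within 3 kb of a start, and peaks were called overlapping from 1 bp. Strands, promoter windows and neighbours came from RefSeq tables (GRCh38.p14), and no coordinate was converted between builds. Exact intervals are Clopper-Pearson (SciPy 1.17.1). The overlap code was tested on simulated data, and its counts on the real lists equalled those of bedtools 2.31.1. Alternatives covered the distance, the list threshold, the overlap and the motif.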

Additional observations from a re-analysis of the deposited data

How the results depend on the processing

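The counts of genes with a peak were the same when a peak had to lie within 1, 5 or 10 kb of the start, or when its centre had to lie within 3 kb. With the first 50% or the first 25% of each list, WT-MYC stayed at 4 genes, while WBM-MYC was left at 1 gene, NPM1. WDR5 was left at 4 and 3 genes, NOP56 and POLR1B being lost at 25%. Under a required overlap of 50% of the shorter peak, genes with overlapping WT-MYC and WDR5 went from 4 to 3 (without NCL), those with overlapping WBM-MYC and WDR5 from 2 to 1 (NPM1), and those with both MYC forms stayed at 3. Merging overlapping peaks left 1 WT-MYC and 1 WDR5 region at NCL and 2 WDR5 regions at NPM1. From 1 to 10 kb, the share of merged WDR5 regions with a WT-MYC peak went from 15.9 to 19.4% and that with a WBM-MYC peak from 3.98 to 4.97%. Taking the nearest pair left the distances between centres as they were, because the nearest pair was already the overlapping pair used. With CANNTG in place of CACGTG, the share was 73.1% of all 27305 genes, 64.5% of the other ribosome-biogenesis genes and 60.0% of the 5 genes. Here a gene counted if any of its windows held a match, and by window the share was 68.7% of all promoters. With CACGCG, an alternative chosen after seeing the data, the shares of these 3 sets of genes were 13.5, 29.0 and 40.0%, and 11.4% of all promoters by window. Unknown read depth limits what a missing peak shows. No paired analysis was possible because each group has 1 peak list with no replicate columns.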
